A study of Mus musculus with 60 samples.

Results

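The forestomach, the part of the rodent stomach lined by squamous epithelium, was compared between 5 male MutaTMMouse animals given benzo(ghi)perylene (BghiP) at the high dose (D3) and 5 given the olive oil vehicle (D0). These 10 arrays were taken, by tissue and dose label, from the 60 arrays of the series, which also covers lung, liver and 2 lower doses (D1 and D2). BghiP is a polycyclic aromatic hydrocarbon, a class of combustion products. This strain carries a bacterial lacZ transgene on which mutations can be scored, and both groups carry it. All 10 mice were about 10 weeks old and were gavaged daily for 28 days, the D3 mice with 25 mg per kg body weight per day, and tissue was taken 72 h after the last dose. RNA came from random sections of the tissue, so a difference in the share of a cell type and a difference in RNA per cell cannot be told apart. RNA of each mouse was labelled with Cy5 and hybridised against the same Cy3-labelled universal mouse reference RNA, a pool from cell lines, with no dye swap. Every value below is therefore a log2 ratio of tissue to reference, and every difference is D3 minus D0 in log2 units.

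Planar hydrocarbons of this class act largely through the aryl hydrocarbon receptor (AhR), which binds xenobiotic response elements next to genes such as Cyp1a1 and Cyp1b1, whose products oxidise them. Damage to DNA by their reactive metabolites is followed in many tissues by induction of p53 targets such as Cdkn1a. Immediate-early genes, such as Fos, Egr1 and Nr4a1, are transcribed within minutes of a stimulus, and many carry cyclic AMP response elements (CRE) near their start. The forestomach is a classic site of carcinogenesis by such compounds in rodents, and its keratinocytes build a cornified layer from keratins, loricrin and small proline-rich proteins.

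Each of the 5 slides held 1 array of every forestomach dose group and the lung arrays of the same mice, and each dose always sat in its own slide column, so dose and column cannot be told apart. Slide was a fixed block, which makes the D3 difference the mean of 5 within-slide differences, of mice 16 and 1, 17 and 2, 18 and 3, 19 and 4, and 20 and 5. The share of probes well above background in Cy5 ran from 21.3% to 50.8% over the 10 arrays. It was lowest in D0 mouse 3, at 21.3%, followed by 25.6% in both D0 mouse 2 and D3 mouse 18, the slide partner of D0 mouse 3. D3 mouse 17, the slide partner of D0 mouse 2, had 37.2%. The interquartile range of all log2 ratios was 0.56 and 0.74 in D0 mice 3 and 2, and 0.65 and 0.85 in D3 mice 18 and 17. Leaving out these 2 slides was a check chosen after the values were seen. At an unadjusted p under 0.05 it left 1.42% of 13322 genes higher and 0.758% lower, the background for counts given without these slides. The number of arrays limits the precision.

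The squamous label held on all 10 arrays. The basal keratins Krt5 and Krt14 had log2 ratios of 2.86 to 4.15 and 3.63 to 4.61, the suprabasal keratin Krt13 4.76 to 6.30, and loricrin (Lor), the main protein of the cornified envelope, 6.76 to 7.95. The arrays were not equal in other tissue. The proton pump subunit Atp4b, which marks acid-secreting parietal cells of the glandular stomach, read -0.26, 7.60, 6.92, 0.57 and 0.36 in D0 mice 1 to 5 and 5.89, -0.02, -0.11, 7.42 and 4.85 in D3 mice 16 to 20. Over 13 tested glandular markers, the median shift of an array from each gene's D0 mean was -2.27 to 3.58 at D0 and -2.32 to 3.56 at D3, high in D0 mice 2 and 3 and in D3 mice 16, 19 and 20. Fat cell markers stood at 3.37 in D0 mouse 5 and at -1.37 to -0.34 in the other D0 mice. The glandular list had a D3 difference of 0.12 in the median and none of its 13 members at an unadjusted p under 0.05, whereas without the slides of D0 mice 2 and 3 the median was 4.28 and 12 members were higher at that threshold, against 1.42% of all genes. Leaving out single mice took the glandular median from -0.88 without D3 mouse 16 and -0.87 without D0 mouse 4 to 1.57 without D3 mouse 17. The D0 mice left without these slides (1, 4 and 5) had glandular shifts of -2.27, -1.90 and -2.18. The D3 mice left (16, 19 and 20) stood at 0.95, 3.56 and 1.81. Array brightness and glandular share can therefore not be told apart in values given without these slides. The part of these cell mixtures in the results below was not tested.

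**Figure D1:**
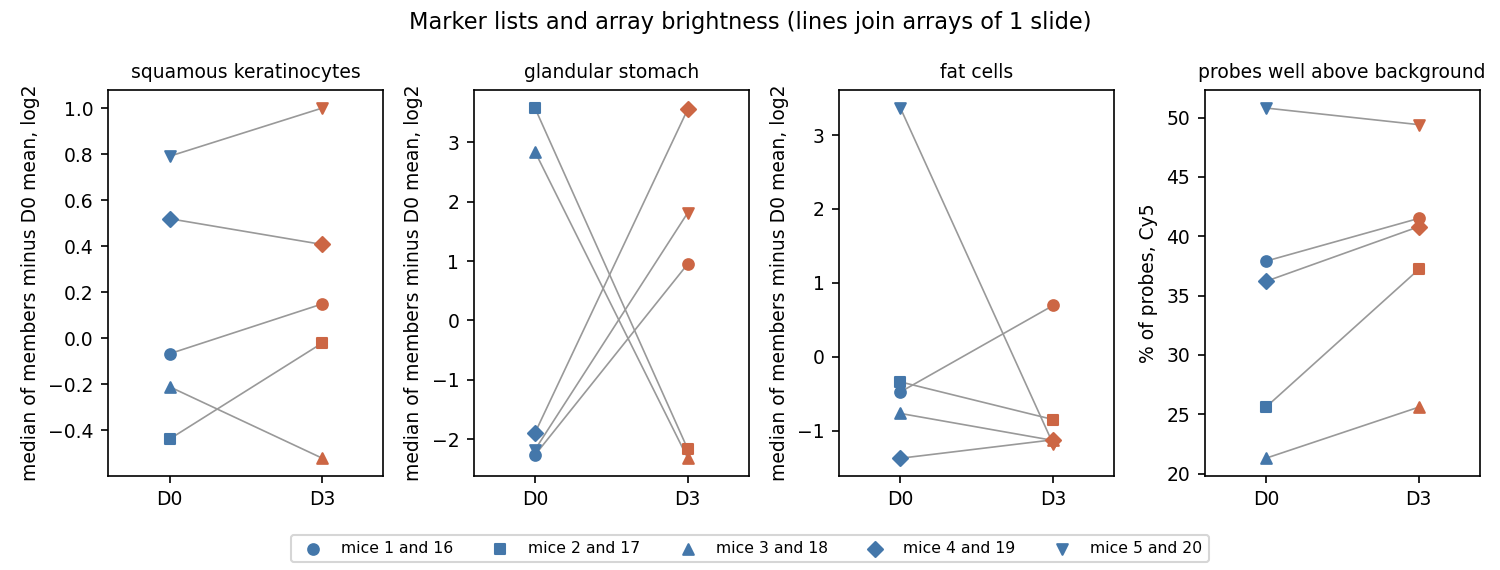
Median shift from the D0 mean of squamous, glandular stomach and fat cell markers (log2 units) and share of probes well above background in Cy5 (percent), by dose group, for the 10 forestomach arrays, each point 1 mouse, with slide partners joined. D0 mice 2 and 3 combine shares of 25.6% and 21.3% with glandular shifts of 3.58 and 2.84, and the fat shift of D0 mouse 5 is 3.37.

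No probe passed the test between high dose and vehicle. Of 25070 probes tested with limma, 0 (0%) reached an adjusted p of 0.05 with a 1.5-fold change, and the lowest adjusted p was 0.776. At an unadjusted p under 0.05, 934 probes were higher (3.73%) and 674 lower (2.69%) at D3, 1608 in all against 1254 expected if no probe differed. With 1 probe per gene, 552 of 13322 genes were higher (4.14%) and 357 lower (2.68%) at that threshold, the background for each count below that is from D3 against D0 over all 5 slides. The difference was above 0 in 52.7% of genes and below 0 in 47.3%, with a median of 0.01. Only 16 genes (0.12%) had every D3 array above every D0 array, and 13 (0.0976%) every D3 array below. At the lower doses, which share the D0 arrays, 12.6% of genes were higher and 7.7% lower at D1, and 5.34% and 4.07% at D2, at an unadjusted p under 0.05, so D3 had the smallest counts.

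**Figure D2:**
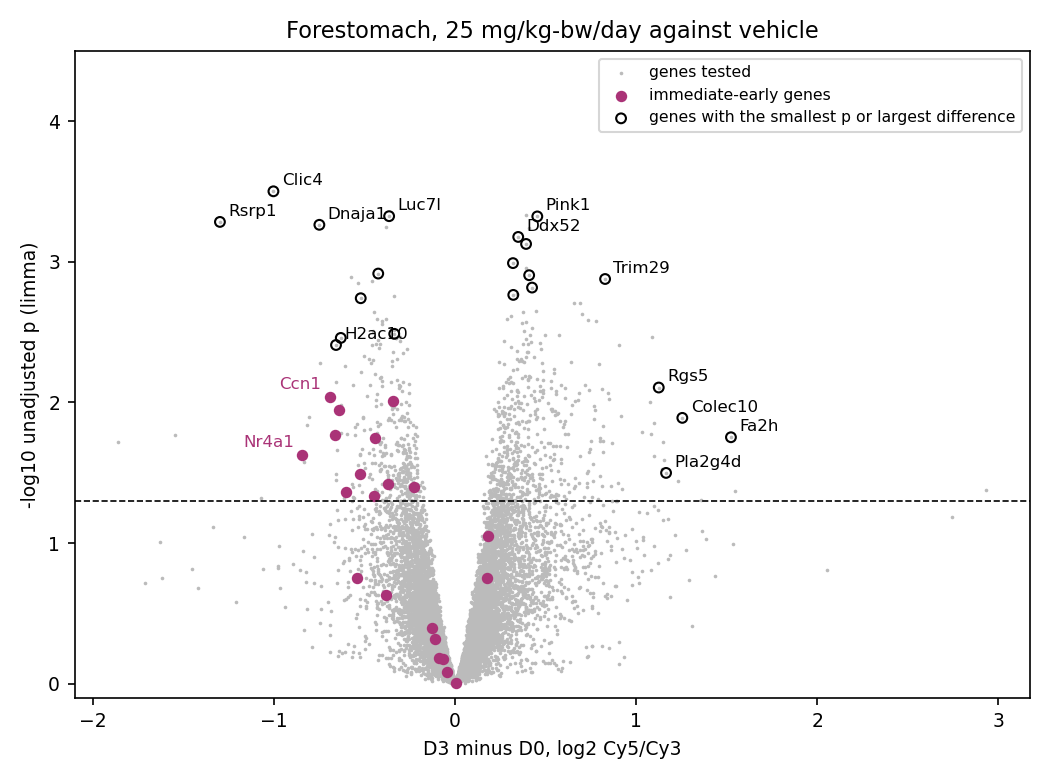
D3 minus D0 difference of each of 13322 genes (log2 units, x axis) against minus log10 of the unadjusted limma p (y axis), with immediate-early genes in purple, genes of smallest p or largest difference circled and a dashed line at an unadjusted p of 0.05. No gene passed the adjusted threshold, and the lowest adjusted p over all probes was 0.776.

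The sign of the difference followed how strongly a gene was expressed relative to the reference RNA. Among 246 genes whose average log2 ratio lay below -2, 93.5% were lower at D3, with a median difference of -0.26 and 48 genes (19.5%) lower at an unadjusted p under 0.05. Among 965 genes with ratios above 2, which include the keratins, 18% were lower and the median was 0.34. Without the slides of D0 mice 2 and 3 the median of the lowest class was -0.04, with 3 genes (1.22%) lower at that threshold, and that of the highest class was -0.01. With Feature Extraction processed signals the medians of these classes were -0.17 and 0.19. A gene list dominated by very low or very high ratios shares in this pattern, whose cause was not tested.

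**Figure D3:**
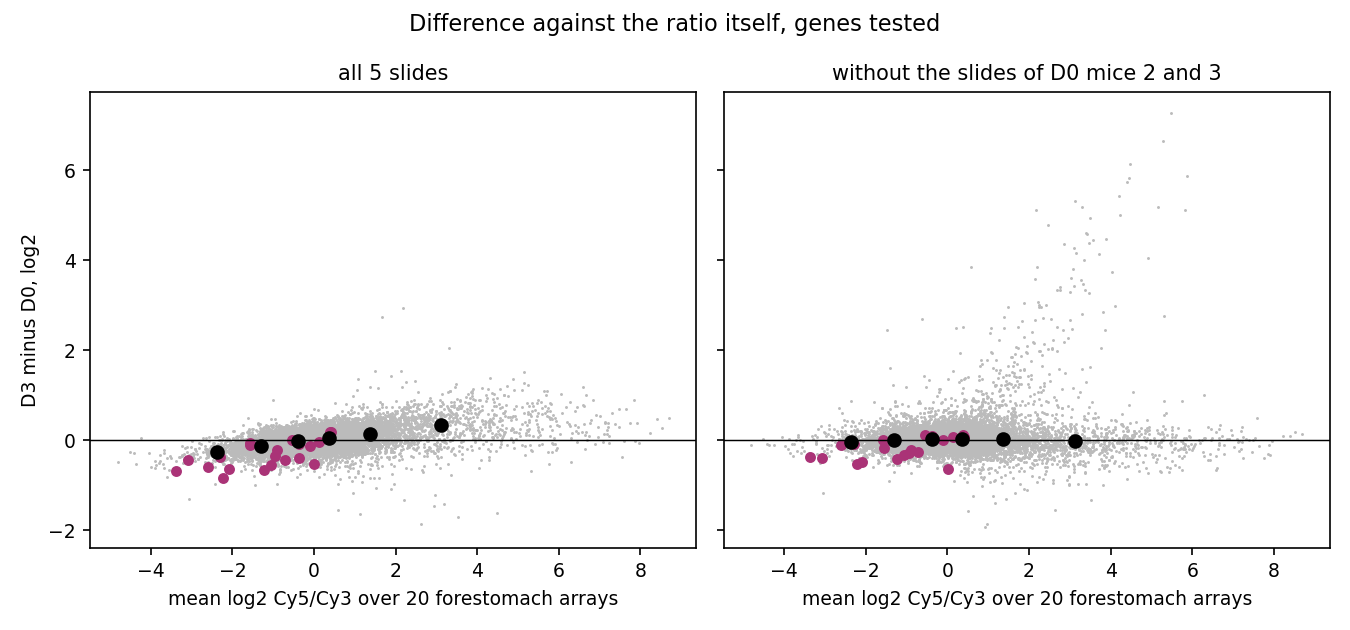
D3 minus D0 difference (log2 units, y axis) against the average log2 ratio to the reference over 20 forestomach arrays (x axis), over all 5 slides and without the slides of D0 mice 2 and 3. Grey points are genes, purple points immediate-early genes and black points the medians of classes of the ratio. The medians run from -0.26 below a ratio of -2 to 0.34 above 2 over all slides, and from -0.04 to -0.01 without those slides.

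The 8 genes with the smallest p among those lower on all 5 slides were Clic4, Luc7l, Rsrp1, Dnaja1, Arhgdib, Ncbp2, Adsl and St3gal1. Of all 13322 genes, 384 (2.88%) were lower and 553 (4.15%) higher on all 5 slides. Naming took only genes well above background on all 10 arrays, and 494 of 7054 of these had the same sign on every slide. Each of the 8 had an adjusted p of 0.776 by limma, and their differences ran from -0.34 to -1.30. Rsrp1, named for its arginine and serine-rich stretches, had the largest. Its D0 arrays of mice 1 to 5 read -3.50, -2.99, -0.92, -2.46 and -1.90, and its D3 arrays of mice 16 to 20 read -3.85, -3.45, -3.42, -3.74 and -3.81. The D3 values lay within a narrow band, which the D0 array of mouse 1 alone entered. The difference was -1.30 (SE 0.30, unadjusted p = 0.000521), and -1.18 without the slides of D0 mice 2 and 3.

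Clic4, a chloride intracellular channel protein, read -1.94, -1.11, -0.31, -0.61 and -0.18 in D0 mice and -2.38, -1.78, -1.92, -2.08 and -1.01 in D3 mice. Its difference was -1.004 (SE 0.22), and another probe of the gene, above background on only 2 D0 and 3 D3 arrays, gave 0.05. Ncbp2 encodes the small subunit of the nuclear complex that binds the cap of new transcripts. Its D0 arrays read 0.18, 0.31, -0.15, -0.01 and 0.10 and its D3 arrays -0.54, -0.18, -0.43, -0.70 and -0.31, so that the groups did not overlap. The difference was -0.52 (SE 0.14), and -0.12 on another probe, above background on 3 D0 and 4 D3 arrays.

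Luc7l, related to a splicing factor of the U1 particle, was the other gene of these 8 whose groups did not overlap. Its values were -0.76, -0.66, -0.67, -0.73 and -0.86 at D0 and -0.999, -1.01, -0.93, -1.28 and -1.28 at D3. The difference was -0.36 (SE 0.08) and another probe, above background on 3 D0 and 4 D3 arrays, also gave -0.36. Dnaja1 encodes a co-chaperone of the Hsp70 family. It read -1.23, 0.16, -0.11, -0.74 and -1.27 at D0 and -1.51, -1.23, -1.57, -1.27 and -1.36 at D3, and the groups overlapped. Its difference of -0.75 (SE 0.17) was -0.30 without the slides of D0 mice 2 and 3. The differences of the rest were -0.43 for Arhgdib, -0.34 for Adsl, an enzyme of purine synthesis, and -0.63 for the sialyltransferase St3gal1. Another probe of Arhgdib, above background on 5 D0 and 5 D3 arrays, gave -0.27. For St3gal1 another probe, above background on 4 D0 and 4 D3 arrays, gave -0.45. Without those slides St3gal1 was -0.36, and with processed signals Adsl was -0.14. At D1 and D2, which share the D0 arrays, Clic4 differed by -0.84 and -0.57 and Ncbp2 by -0.43 at both. Rsrp1 differed by -0.58 and -0.91, Luc7l by -0.21 and -0.28 and St3gal1 by -0.31 and -0.25. Dnaja1 differed by 0.07 and -0.23, Arhgdib by -0.09 and -0.22 and Adsl by 0.01 and -0.24.

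The 8 genes with the smallest p among those higher on all 5 slides were Pink1, Ddx52, Aftph, Dnttip2, Ddx3x, Trim29, Mmadhc and Phf10, again each with an adjusted p of 0.776 by limma. Pink1, a mitochondrial kinase that marks damaged mitochondria for removal, read 1.75, 1.69, 0.85, 1.55 and 2.11 in D0 mice 1 to 5 and 2.06, 2.14, 1.61, 2.01 and 2.40 in D3 mice 16 to 20. Every D3 array was above its slide partner, although the groups overlapped, and the difference was 0.45 (SE 0.10). With Feature Extraction processed signals it was 0.13 (unadjusted p = 0.329). Trim29, a tripartite motif protein of stratified epithelia, read 5.50, 4.73, 4.12, 4.69 and 5.85 at D0 and 5.77, 5.63, 5.53, 6.09 and 6.00 at D3. Its difference of 0.83 was 0.61 without the slides of D0 mice 2 and 3. The RNA helicases Ddx52 and Ddx3x differed by 0.35 and 0.41, with 0.13 on another probe of Ddx3x. The others were 0.39 for Aftph, of clathrin-coated vesicle traffic, 0.32 for the nuclear protein Dnttip2, 0.42 for Mmadhc, of vitamin B12 metabolism, and 0.32 for Phf10, a chromatin remodelling subunit. With processed signals Ddx3x and Mmadhc were 0.24 each, Trim29 0.49 and Ddx52 0.56. Without those slides Ddx3x was 0.25 and Mmadhc 0.23. At D1 and D2, which share the D0 arrays, Pink1 differed by 0.25 and 0.42 and Aftph by 0.40 and 0.29. Dnttip2 differed by 0.27 and 0.26, Ddx3x by 0.29 at both and Trim29 by 0.15 and 0.53. Mmadhc differed by 0.18 and 0.13, Ddx52 by -0.01 and 0.17 and Phf10 by -0.03 and 0.07.

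**Figure D4:**
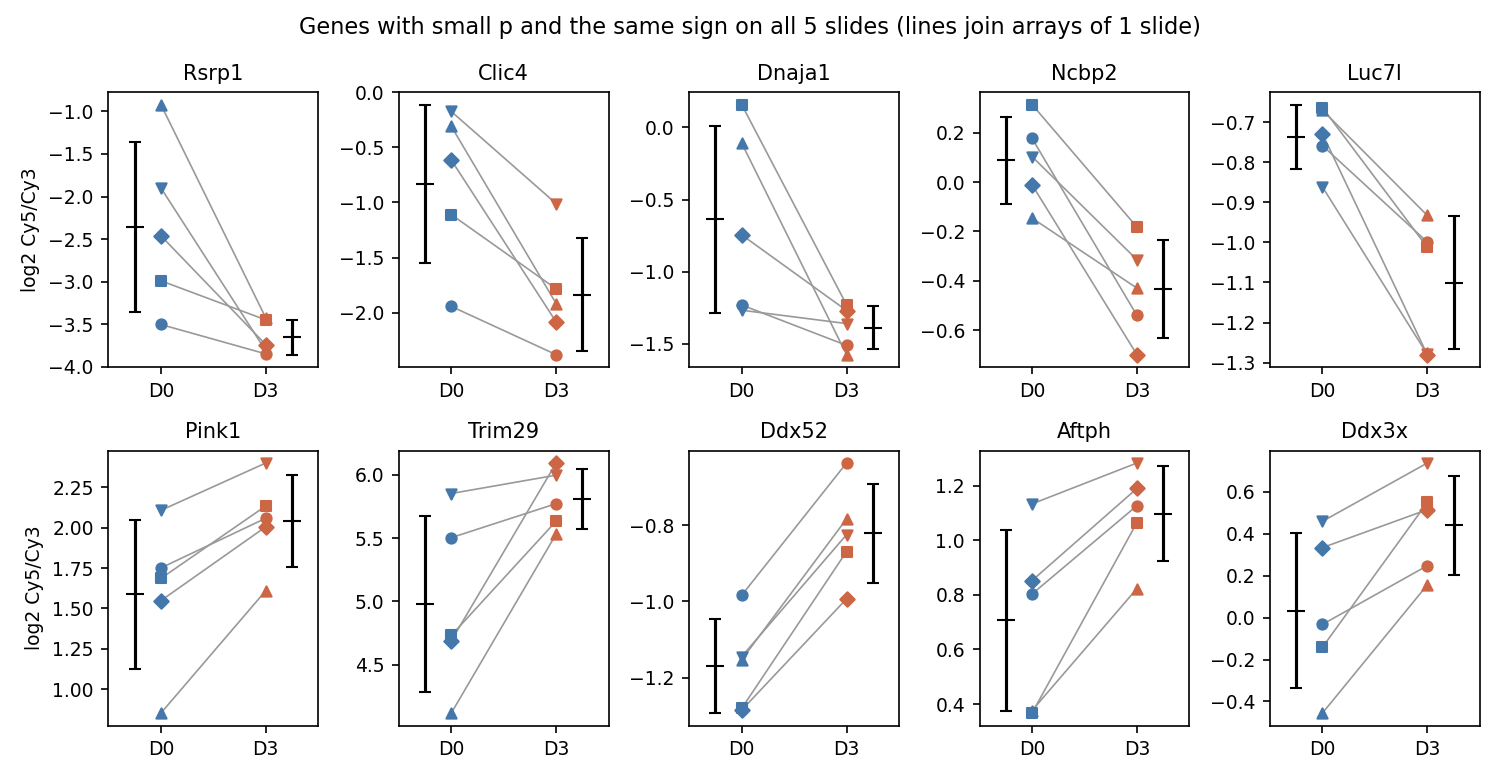
Log2 ratio to the reference (y axis) of genes named by their consistency across slides, one panel per gene, with D0 and D3 mice of the same slide joined by a line and bars for the mean and SD of each group. The groups do not overlap for Luc7l (D0 -0.86 to -0.66, D3 -1.28 to -0.93) and Ncbp2 (D0 -0.15 to 0.31, D3 -0.70 to -0.18).

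The largest positive differences among genes with 1 sign on all slides were in Fa2h, Colec10, Pla2g4d and Rgs5. Fa2h makes 2-hydroxylated sphingolipids of epithelia. It read 6.04, 0.85, 1.87, 5.53 and 6.32 at D0 and 6.24, 5.74, 3.90, 5.82 and 6.52 at D3, so D0 mice 2 and 3 and, less far, D3 mouse 18 stood below the rest. The difference of 1.52 (SE 0.57) was 0.23 without their slides. The collectin Colec10 differed by 1.25, the phospholipase Pla2g4d by 1.16 and Rgs5, a G-protein regulator of pericytes, by 1.12, and these were 0.74, 0.46 and 0.27 without those slides. The largest negative differences were those of Rsrp1, Clic4 and Dnaja1, followed by the histone gene H2ac10 at -0.66 (-0.40 without those slides and -0.38 with processed signals), whose copies are nearly identical and may share signal.

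Immediate-early genes were the list with the most members lower at D3 at an unadjusted p under 0.05. Of 25 listed genes 21 were tested, with 18 differences below 0 and 3 above, and 11 (Ccn1, Junb, Fosb, Atf3, Dusp1, Nr4a1, Klf2, Fosl1, Ier2, Fos and Egr1, all given since the list turned on them) were lower at an unadjusted p under 0.05, against 2.68% of all genes. None was higher at that threshold, and none passed the adjusted test, with an adjusted p of 0.776 by limma for each of the 11. The list's median difference was -0.37, against 0.01 over all genes, and ran from -0.72 to 0.06 over the 5 slides. No member had groups without overlap.

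Reference sequence before the start of 3 of these genes is shown because CRE cores lie within it. The 250 bases before the annotated start come from RefSeq on GRCm38.p6, 5′ to 3′ on the strand of the gene, at chr12:85473640-85473889 (+) for Fos, chr15:101266596-101266845 (+) for Nr4a1 and chr17:26508473-26508722 (-) for Dusp1. Capitals mark the CRE core TGACG or its reverse complement CGTCA, which the full palindrome TGACGTCA in Dusp1 holds on both strands.
Fos: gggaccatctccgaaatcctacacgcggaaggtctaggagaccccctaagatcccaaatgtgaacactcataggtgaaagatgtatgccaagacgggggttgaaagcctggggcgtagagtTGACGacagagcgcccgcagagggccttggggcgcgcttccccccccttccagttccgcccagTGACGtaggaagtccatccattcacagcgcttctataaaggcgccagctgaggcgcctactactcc
Nr4a1: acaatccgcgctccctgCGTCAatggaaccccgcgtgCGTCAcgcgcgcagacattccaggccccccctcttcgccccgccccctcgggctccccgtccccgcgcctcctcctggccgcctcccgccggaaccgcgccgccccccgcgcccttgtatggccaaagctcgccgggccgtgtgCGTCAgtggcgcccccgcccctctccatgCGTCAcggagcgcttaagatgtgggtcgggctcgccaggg
Dusp1: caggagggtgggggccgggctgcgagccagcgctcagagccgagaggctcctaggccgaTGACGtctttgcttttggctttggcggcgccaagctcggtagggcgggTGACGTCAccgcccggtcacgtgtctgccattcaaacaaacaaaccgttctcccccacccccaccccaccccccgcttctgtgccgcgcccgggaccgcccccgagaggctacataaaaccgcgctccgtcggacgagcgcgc
Of the 21 tested members 16 had a promoter in the RefSeq table, and 10 of the 16 held a core on either strand, against 17.9% of 27025 promoters of the same length. The full palindrome was in 2, Dusp1 and Btg2, against 1.62% of all promoters. A match describes these letters and is no evidence of a bound site.

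Nr4a1, an orphan nuclear receptor with 4 CRE cores in this window, had the largest difference of the list. It read -2.38, -0.07, -1.71, -1.03 and -2.75 in D0 mice 1 to 5 and -2.76, -2.50, -1.89, -2.45 and -2.55 in D3 mice 16 to 20. The D3 arrays were alike, while the D0 arrays spread around and above them. The difference was -0.84 (SE 0.34). Fos, which pairs with Jun proteins in the AP-1 transcription factor, read -3.07, -1.21, -1.11, -2.33 and -4.52 at D0 and -3.37, -3.14, -1.86, -2.96 and -3.93 at D3, and was well above background on 3 and 2 arrays. Its difference was -0.60 (SE 0.27), with the D0 array of mouse 5 the lowest of all 10, and was -1.33 with processed signals. Dusp1, a phosphatase that switches off MAP kinases, read -0.74, 0.16, -0.15, 0.09 and -1.23 at D0 and -1.07, -0.92, -0.49, -0.68 and -0.94 at D3, a difference of -0.44 (SE 0.17).

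Ccn1, a secreted matrix protein, had the smallest p of the list. Its values were -3.46, -2.09, -2.27, -2.59 and -4.30 at D0 and -4.02, -3.79, -2.90, -3.57 and -3.91 at D3. The groups overlapped, and D0 mouse 5 again was below every D3 mouse. The difference was -0.69 (SE 0.23, unadjusted p = 0.00917). Klf2, a transcription factor of endothelium and quiescent lymphocytes, differed by -0.53 with D0 values of 0.10, 0.92, -0.08, 0.68 and 0.28 and D3 values of -0.64, 0.13, -0.05, -0.33 and 0.15. The other Fos and Jun family members differed by -0.64 for Fosb, -0.37 for Fosl1, -0.34 for Junb, -0.09 for Jun, -0.05 for Jund and 0.18 for Fosl2.

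Much of this difference rested on the slides of D0 mice 2 and 3. The list's median shift from the D0 means was -0.28, 0.54, 0.22, 0.15 and -0.45 in D0 mice 1 to 5 and -0.47, -0.24, -0.11, -0.28 and -0.34 in D3 mice 16 to 20. Without the slides of D0 mice 2 and 3 the list's median difference was -0.17, 15 of 21 members were below 0, and 1, Klf2 at -0.63, was lower at an unadjusted p under 0.05. The differences were then -0.54 for Nr4a1, -0.38 for Ccn1, -0.27 for Dusp1, -0.11 for Fos and -0.09 for Fosl1. With processed signals Fosb, Klf2 and Fosl1 were -1.08, -0.97 and -0.85. Leaving out D0 mouse 4 alone, or D0 mouse 2 alone, left 3 and 4 members lower at that threshold. Of 25070 probes, 1282 and 420 were then lower, beside 674 with all mice. All 6 members with an average log2 ratio below -2 were among the 11, with a median difference of -0.62 beside -0.26 for all genes of that class. The 12 members above background on all 10 arrays had a median of -0.12 and 4 were lower at that threshold, whereas 9 of 21 were below background on at least 1 array.

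**Figure D5:**
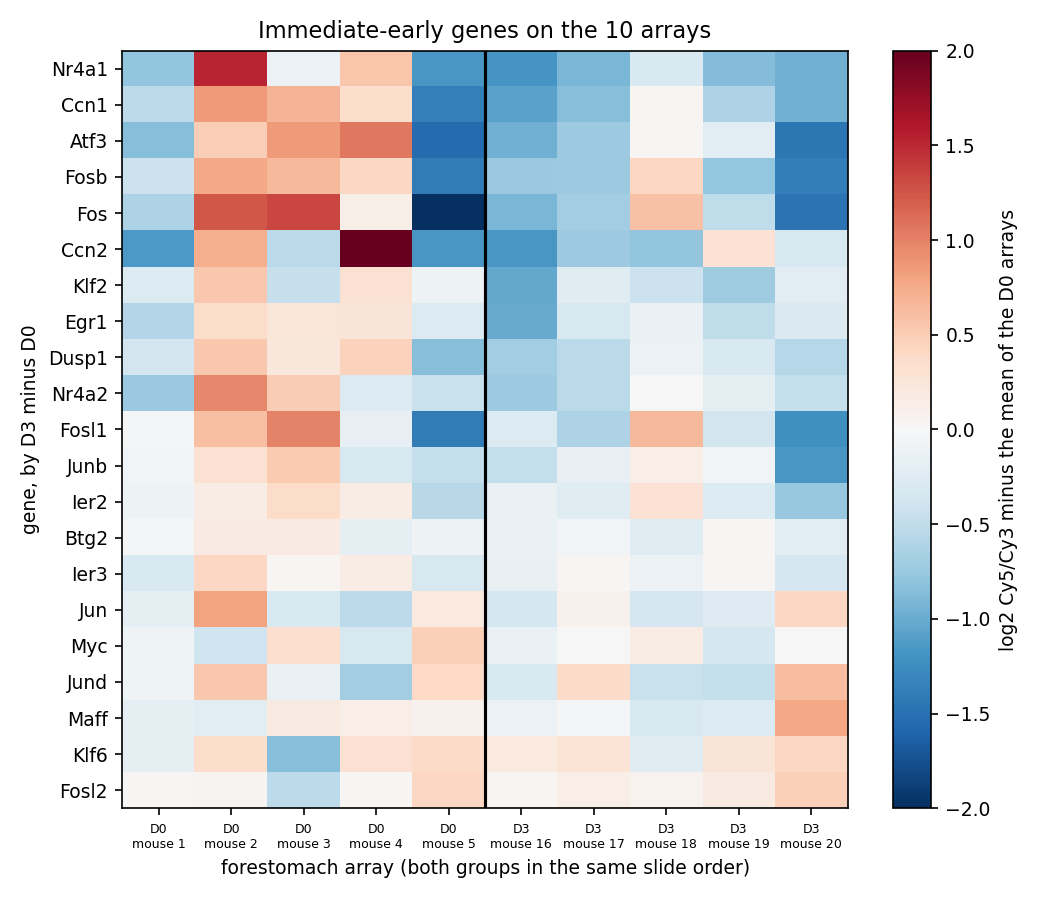
Shift of each tested immediate-early gene (rows) from its D0 mean (log2 units, colour scale ending at -2 and 2) in D0 and D3 mice (columns), slides in the same order in both groups. D0 mice 2 and 3 show many of the high values, and the list's median shift per array runs from -0.45 to 0.54 at D0 and from -0.47 to -0.11 at D3.

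At D1 and D2, which share the D0 arrays, the list's medians were -0.21 and -0.30, with 6 and 9 members lower at an unadjusted p under 0.05, against 7.7% and 4.07% of all genes, and 1 higher at each dose, against 12.6% and 5.34%. In lung of the same mice, on the same slides, the D3 median was 0.11 with 0 of 21 members lower, against 6.57% of 12725 genes. In liver it was -0.01 with 1 of 21 lower, against 7.49% of 11795 genes. Tested within mice, no probe had a D3 difference that differed between forestomach and lung (0 of 24074, 0%, lowest adjusted p 0.343 by limma, with 1343 or 5.58% at an unadjusted p under 0.05) or liver (0 of 22238, 0%, lowest adjusted p 0.105, with 2120 or 9.53%). For Nr4a1 the forestomach minus lung contrast was -1.17 with an adjusted p of 0.842.

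Heat shock genes leaned lower without members past the adjusted test. Of 26 tested, 21 were below 0 and 2 (Dnaja1 and Hspa8, the constitutive Hsp70) were lower at an unadjusted p under 0.05, with a list median of -0.20. Hspa8 differed by -0.50 (SE 0.18) and was lower on all 5 slides. Without the slides of D0 mice 2 and 3 the list's median was -0.03. In lung of the same mice 13 of 26 members were lower at that threshold, against 6.57% of lung genes, with a median of -0.33. Rsrp1 fell in lung, by 1.81 on the log2 scale (adjusted p = 0.0304 by limma), and differed by -0.87 in liver (adjusted p = 0.307), and its forestomach minus lung contrast had an adjusted p of 0.842. In lung and liver Clic4 differed by -0.98 and -0.85, Ncbp2 by -0.32 and -0.48 and Dnaja1 by -0.73 and -0.21. Luc7l differed by -0.004 and 0.02, Arhgdib by 0.06 and -0.08, Adsl by -0.23 and 0.19 and St3gal1 by -0.11 and 0.02. Each of these had an adjusted p of at least 0.121 by limma.

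AhR target genes showed no common direction. Cyp1a1 and Cyp1a2, the classic AhR-induced monooxygenases, were not well above background on any of the 10 arrays, so no fold is given. Cyp1b1, above background on 3 D0 and 5 D3 arrays, differed by 0.17 (SE 0.21), the receptor gene Ahr by -0.17 (SE 0.11) and the ADP-ribosylating repressor Tiparp by 0.04 (SE 0.12). Ahrr, the receptor's repressor, differed by 0.18 (SE 0.14) and was above background on 2 and 4 arrays. Without the slides of D0 mice 2 and 3 the differences of Cyp1b1 and Ahrr were -0.06 and 0.01, and with processed signals 0.34 and 0.75. The 250 bases before the start of Ahrr lie at chr13:74292332-74292581 (-). They are shown for 3 cores of the xenobiotic response element, GCGTG in capitals. This motif was found on either strand in 28.2% of promoters. It lay in 4 of the 8 AhR list genes with a promoter and in 8 of the 16 immediate-early genes with one.
Ahrr: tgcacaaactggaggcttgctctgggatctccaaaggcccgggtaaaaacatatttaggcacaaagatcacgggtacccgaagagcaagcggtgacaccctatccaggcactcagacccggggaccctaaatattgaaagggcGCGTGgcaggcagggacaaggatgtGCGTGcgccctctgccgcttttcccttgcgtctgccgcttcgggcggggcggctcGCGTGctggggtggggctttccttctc
Of 14 tested AhR genes 6 were above 0 and 8 below, with a median of -0.03, which was 0.03 without the slides of D0 mice 2 and 3. At an unadjusted p under 0.05, 2 were higher, Ugt1a6b at 0.34, of the glucuronidating family whose members share exons, and the receptor's partner Arnt at 0.26, and 0 were lower. Nqo1, a quinone reductase under both AhR and Nrf2, differed by -0.17 (SE 0.31), and by 0.32 without the slides of D0 mice 2 and 3.

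DNA repair genes and p53 targets had medians close to 0. Cdkn1a, the p21 cell cycle inhibitor, differed by -0.25 (SE 0.12, unadjusted p = 0.0527) in forestomach and by 0.67 in lung, with an adjusted p of 0.842 by limma for the contrast between the tissues. Gdf15, a stress cytokine, differed by -0.47 on a probe above background on 2 D0 and 1 D3 arrays, by -0.22 without the slides of D0 mice 2 and 3 and by -1.05 with processed signals. In lung Gdf15 differed by 0.97, and its forestomach minus lung contrast of -1.43 had an adjusted p of 0.343 by limma, the lowest of that contrast. Of 26 tested p53 targets, 11 were above 0 and 15 below, none was higher and 3 lower at an unadjusted p under 0.05 (the death receptor Tnfrsf10b, Gdf15 and the polymerase Polk), and the median was -0.04, which was 0.03 with processed signals and 0.003 without D0 mouse 2. The median within a slide ran from -0.14 to -0.07. Of these targets 1 had every D3 array below every D0 array, against 0.0976% of all genes. DNA repair genes had 1 of 32 higher (Xpa, which verifies lesions, at 0.42) and 2 lower (Rad18 at -0.26 the smallest p), and a median of -0.05, against 2 higher, 0 lower and 0.06 with processed signals. Cell cycle genes had 27 of 32 below 0, 3 lower at that threshold, led by the helicase subunit Mcm3 at -0.41, and a median of -0.13, which was -0.03 without the slides of D0 mice 2 and 3. Over the alternatives run the cell cycle median was -0.20 to -0.007. Nrf2 antioxidant genes were split, with Srxn1, which repairs peroxiredoxins, different by 0.27, the ferritin gene Ftl1, one of several near-identical copies, different by -0.62, and a median of 0.02 over 26. Hmox1, the haem oxygenase, gave 0.30 on its brightest probe, -0.16 without the slides of D0 mice 2 and 3, and -0.17 on another probe.

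Genes of the squamous lining had more differences above 0 than below at D3, but few members were higher at an unadjusted p under 0.05, where 4.14% of all genes were. Genes with average ratios above 2 were also mostly above 0 (18% lower). Of 32 cornified envelope genes 28 were above 0, 2 were higher at an unadjusted p under 0.05 and 1 lower, with a median of 0.22. Sprr2d, a small proline-rich cross-linking protein, differed by 1.10 (SE 0.40) and Lce3a by 0.47, while Lor differed by -0.36 (SE 0.17). Families such as Sprr2 and Lce are near-identical copies whose probes may share signal. Regulators of stratified epithelium and desmosome genes had 24 of 31 above 0 and a median of 0.22, with 1, the transcription factor Grhl2 at 0.30, higher at that threshold. Keratin genes had 15 of 21 above 0, a median of 0.13 and 0 past an unadjusted p of 0.05. Without the slides of D0 mice 2 and 3 these 3 medians were 0.02, -0.05 and 0.20, and 7 of 21 keratins were higher at that threshold, against 1.42% of all genes. The arrays then left differ in glandular marker shift between the groups, as given above, and its part in the keratin count was not tested. The 10 squamous markers had 0 members higher and 1, Lor, lower at that threshold, and a median of 0.20, which was 0.04 without those slides, 0.09 without D0 mouse 2 and 0.06 with processed signals.

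Chemokine genes showed no common direction, while most interferon-stimulated genes and lymphocyte markers had differences below 0. Chemokines and cytokines had 3 of 23 higher, led by the keratinocyte chemokine Ccl27a at 0.53 (SE 0.19, higher on all 5 slides), and 1 lower, the T cell chemokine Ccl5 at -0.56, with a median of 0.02. Interferon-stimulated genes had 24 of 28 below 0, 1 lower at an unadjusted p under 0.05 (Oas3, a sensor of double-stranded RNA, at -0.40), and a median of -0.17, which was 0.06 without the slides of D0 mice 2 and 3. Markers of B and plasma cells had 5 of 5 tested below 0, with 2 lower at that threshold and a median of -0.28. Those of T cells also had 5 of 5 below 0, with 1 lower (Cd3e at -0.38) and a median of -0.28. Macrophage and dendritic cell markers had 1 of 13 higher, the class II gene H2-Aa at 0.57. Without those slides the B and T cell medians were -0.08 and -0.03.

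The remaining lists had at most 2 members at an unadjusted p under 0.05 in either direction. Circadian clock genes had 1 of 16 higher, the repressor Nr1d2 at 0.36, and 1 lower, Nfil3 at -0.42. Endocytosis genes had 2 of 44 higher, led by clathrin heavy chain (Cltc) at 0.33, and 1 lower, the receptor Lrp1 at -0.40. Oxidative phosphorylation genes had 0 of 35 higher and 1 lower, Ndufs7 at -0.43. Retinoid genes (23 tested), collagen and matrix genes (31) and lipid synthesis genes (34) had none at an unadjusted p under 0.05, with medians of 0.05, -0.17 and 0.11. The collagen and matrix median was -0.23 to -0.06 over the alternatives run. Enteric neuron and glia markers had 11 of 11 above 0, against 52.7% of all genes, and 2 higher, led by Uchl1, a neuronal deubiquitinase, at 0.48. Their median of 0.25 was 0.17 to 0.39 over the alternatives run, and 0.22 with 0 members at that threshold without the slides of D0 mice 2 and 3. Mesothelial markers had 1 of 8 higher, Gpm6a at 0.69, red cell markers 1 of 5 lower, the haem synthesis gene Alas2 at -1.07, and skeletal muscle markers 1 of 6 lower, Pvalb at -0.24. Markers of endothelium, fat, fibroblasts, granulocytes, mast cells, pancreatic acinar cells and smooth muscle had none at that threshold, with medians from -0.82 in fat to 0.22 in granulocytes. The fat median rested on D0 mouse 5, being 0.07 without it. Without the slides of D0 mice 2 and 3 the medians of fibroblast markers (0.17), red cell markers (-0.13), lipid synthesis genes (0.11) and oxidative phosphorylation genes (-0.08) took the other sign, at -0.36, 0.11, -0.07 and 0.15, as did those of skeletal muscle markers (0.08 to -0.02) and endocytosis genes (-0.03 to 0.04). The endothelial median of -0.26 was 0.06 without D0 mouse 2.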

How the data were processed

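RNA was hybridised to Agilent SurePrint mouse arrays of 62976 spots. The deposited files give intensity per channel from Feature Extraction 10.7.3.1, and the authors' own log2 ratios form a separate deposited table, of which scale and direction were checked against the scanner values (correlation 0.992 to 0.999, column medians -0.041 to -0.022). The authors used LOWESS on median signals without background subtraction and a MAANOVA permutation test. Here median signals were loess-normalised with limma 3.58.1 in R 4.3.3. Control spots (3671) were dropped. Spots flagged as non-uniform or as population outliers in either channel (0.52% of forestomach values) were treated as missing. Spots of a probe were averaged, and symbols came from RefSeq accessions (26413 of 55681 probes, 47.4%). A probe was tested if its Cy5 spot was flagged as clearly over background by Feature Extraction on 5 or more of the 20 forestomach arrays (25070 probes), with dose and slide as terms, over 20 arrays of 4 doses, which share the estimate of the spread (15.1 moderated degrees of freedom), with Benjamini-Hochberg adjustment over all of them. A call was an adjusted p of 0.05 or less and 1.5-fold. A gene was given by its brightest probe.

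Named genes were 10 fixed ones (Cyp1a1, Cyp1a2, Cyp1b1, Ahr, Ahrr, Tiparp, Nqo1, Cdkn1a, Gdf15, Hmox1), called genes (0), the 8 of smallest p higher and the 8 lower, and the 4 of largest difference each way, among genes above background on all 10 arrays with 1 sign on all 5 slides, and in each of 34 lists the member of smallest p each way. Others named were chosen after their values were seen. The comparison, its members and the lists were chosen with earlier results of these data known. Mice are separate animals. The fit was tested on simulated data. No 2 of the 10 arrays correlated above 0.9592. Alternatives tried were other blocks, array sets, background corrections, signals, filters, variance models and thresholds, a shuffled-residual test modelled on that of the methods and leaving out each mouse.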

Additional observations from a re-analysis of the deposited data

Results flagged for a closer look

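In 126 groups of 5 arrays (the lists and named genes at D0 and at D3), 7 held 1 array far from the other 4, measured as its gap to the nearest array over the group's range. Chance flags about 1 in 20 groups. For fat cell markers the ratio was 0.782 at D0, where mouse 5 stood at 3.37 and the others at -1.37 to -0.34, and 0.823 at D3, where mouse 16 stood at 0.69 and the others at -1.18 to -0.85. Mast cell markers gave 0.781 at D3, with mouse 18 at -0.94 and the others at -0.08 to 0.17. Pancreatic acinar markers gave 0.735 at D0, with mouse 2 at 0.60, the highest. Cell cycle genes gave 0.732 at D3, with mouse 16 at -0.41, the lowest. Chemokines and inflammatory cytokines gave 0.793 at D0, with mouse 5 at -0.49, below the others at -0.04 to 0.08. Oxidative phosphorylation genes gave 0.729 at D3, with mouse 19 at 0.23, above the others at -0.22 to -0.10. The part of tissue sampling in these values was not tested.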

How the results depend on the processing

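Under all alternatives with an adjusted p, 0 probes passed, including a shuffled-residual test modelled on that of the methods (lowest adjusted p 0.82, 1488 of 24801 probes at an unadjusted p under 0.05). It shuffled the residuals of a fit without dose within slides, 100 times, under limma's moderated statistic. Those residuals still held the D1 and D2 differences. Only filtered probes with complete values entered it, and it does not stand for the authors' MAANOVA test. The methods' looser threshold of an unadjusted p under 0.05 and 1.2-fold gave 1212 probes, 737 higher and 475 lower. Against 1608 probes at an unadjusted p under 0.05, the fit without the slide block gave 377 (193 higher, 184 lower), the 10 arrays alone 1068, no filter 3234, a filter on all 20 arrays 718, and leaving out the slides of D0 mice 2 and 3, chosen after seeing the data, 536. Leaving out each mouse gave 1015 to 2836, with 1015 and 1037 without D0 mice 2 and 3, 1055 and 1035 without D3 mice 17 and 18 and 2836 without D0 mouse 4. The cause was not tested. Of the probes at an unadjusted p under 0.05, 58.1% were higher, but 72.1% with processed signals (991 higher, 384 lower), 67.3% with the filter on all 20 arrays and 49.3% with deposited log2 ratios (788 higher, 811 lower).

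The 11 immediate-early members lower at an unadjusted p under 0.05 became 2 without the slide block, 7 with slide as a random block, 5 with the 10 arrays alone, 5 with processed signals, 4 with the filter on all 20 arrays (of 12 members tested) and 1 without the slides of D0 mice 2 and 3. Over all probes, 674 were lower at that threshold, and 184, 521, 406, 384, 235 (of 10659 tested) and 230 under these settings in turn. Leaving out each mouse gave 3 to 11, with 4, 7 and 3 without D0 mice 2, 3 and 4 and 5, 7 and 6 without D3 mice 17, 18 and 19. Over all probes, these fits in turn had 420, 491, 1282, 489, 448 and 602 lower at that threshold. The list's median stayed below 0. Of the 8 tested genes that were fixed by name, 4 kept their sign under every alternative run for them (20 or 21), and Cyp1b1, Tiparp, Nqo1 and Hmox1 did not. The other named genes were chosen for 1 sign on all slides, so their sign is no measure of stability. Over the alternatives, 12 of 34 list medians kept their sign. Contrasts between tissues had 0 probes called under every alternative run, slide block left out included. Aquantile changes averages and no ratio, so its values equalled the reported ones.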
